A study of Mus musculus with 6 samples.

Results

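The genes described here encode the 3 colony-stimulating factors (Csf1, Csf2 and Csf3) and the chains of their receptors (Csf1r, Csf2ra, Csf2rb, Csf2rb2 and Csf3r), 8 genes among 19938 that the arrays measure with a probe set of their own. Each was taken by its name and read from the 1 probe set that the platform annotation assigns to it. Between the genotypes, Csf1 and Csf3 fell and Csf1r, Csf2rb2 and Csf3r rose. Csf2 had a lower signal on every array labelled KLF2∆/∆ but lay below the level at which genes were tested.

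Colony-stimulating factors are secreted cytokines that make myeloid precursors survive, divide and mature. CSF-1 (also called M-CSF) acts through the receptor tyrosine kinase encoded by Csf1r, on which most tissue macrophages depend. GM-CSF (from Csf2) acts through a receptor made of a ligand-binding alpha chain and a shared beta chain that carries the JAK2 and STAT5 signal, and G-CSF (from Csf3) acts through the receptor encoded by Csf3r, best known from neutrophils. Lipopolysaccharide (LPS), the part of Gram-negative bacteria that TLR4 detects, is known to induce these cytokine genes in macrophages and in stromal cells.

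RNA was measured in thioglycolate-elicited peritoneal macrophages of 8 week old C57BL/6 mice, on 3 arrays labelled LysMCre/Cre and 3 labelled KLF2∆/∆ (LysMCre/Cre with a floxed Klf2 gene). Cells of both groups received LPS at 100 ng/ml for 6 h, and without untreated arrays the response to LPS itself was not measured. In both groups the Cre recombinase sits on both alleles of the lysozyme gene Lyz2, which is active in myeloid cells, so a deletion in fibroblasts or mesothelium is not part of the model. The cells were enriched by adherence alone, and no label ties an array to a single mouse, which makes the p-values a measure of array-to-array spread, possibly technical.

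Median log2 intensity per array lay between 7.85 and 7.90, and no arrays held identical values. The label check went against the deletion: the Klf2 probe set read 8.93 ± 0.047 in the LysMCre/Cre group and 9.19 ± 0.082 in the KLF2∆/∆ group (SD, n = 3; change 0.26 ± 0.064 SE, limma adjusted p = 0.00398). The call was lost without moderation of the variances (adjusted p = 0.0522), and the labels do not say whether these probes lie in the deleted part. Every direction below is therefore one between libraries labelled KLF2∆/∆ and libraries labelled LysMCre/Cre. Lyz2 changed by 0.0050 (adjusted p = 0.964; -0.033 to 0.044 when single arrays were left out). All 14 macrophage markers with a probe set lay above the tested level, and so did 20 of 21 fibroblast and mesothelial markers.

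Changes are differences of mean log2 intensity, KLF2∆/∆ minus LysMCre/Cre, from 3 arrays a group. Adjusted p is limma's, with Benjamini-Hochberg adjustment over the 12649 genes whose 6-array mean reached log2 7.49, and a gene is said to rise or fall where it is below 0.05. Of these genes 13.6% rose and 16.2% fell, 19.3% had all arrays labelled KLF2∆/∆ above all LysMCre/Cre arrays, and 21.4% had them all below. Of the 8 members, 7 were tested, of which 2 fell, 3 rose and 2 did not pass. The exact two-sided permutation test over the arrays can give no p below 0.1 with 3 arrays against 3.

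Csf1 encodes CSF-1, which fibroblasts and mesothelium make as well as macrophages. Its log2 intensities were 11.56, 11.52 and 11.73 for LysMCre/Cre and 11.16, 11.21 and 11.15 for KLF2∆/∆. The groups did not overlap, and the highest KLF2∆/∆ array lay 0.31 below the lowest LysMCre/Cre array. Csf1 fell by 0.43 ± 0.052 (SE), a signal 1.34-fold lower (95% interval of the change -0.54 to -0.32, adjusted p = 2.06e-06, exact permutation p = 0.1). The 3 LysMCre/Cre arrays varied more, with an SD of 0.11 against 0.034. Replicate 3 of LysMCre/Cre was the highest, and without it the change was -0.36.

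Csf3 encodes G-CSF, the cytokine that raises neutrophil output from the marrow. Its log2 intensities were 8.56, 8.73 and 8.50 for LysMCre/Cre and 7.80, 7.96 and 8.01 for KLF2∆/∆. All arrays were above the tested level, and a gap of 0.49 parted the groups. Csf3 fell by 0.67 ± 0.078 (1.59-fold lower, 95% interval -0.84 to -0.51, adjusted p = 1.14e-06, exact permutation p = 0.1). Of all tested genes, 222 including Csf3 had a change at least as far below 0, against 588 for Csf1.

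Csf2 encodes GM-CSF, which activated T cells, mast cells, stromal cells and macrophages can release. Its log2 intensities were 7.86, 7.54 and 7.66 for LysMCre/Cre, all above the tested level of 7.49, and 6.80, 7.002 and 6.95 for KLF2∆/∆, all below it. Because its 6-array mean lay under that level it was left out of the main test. As measured, its change was -0.77 ± 0.090 (95% interval -0.96 to -0.58). In the fit without a filter, over 19938 genes of which 10.3% fell, its adjusted p was 5.07e-06. With the lower mean held at 7.49 the difference was -0.19, or 1.14-fold. That level is the 40th percentile of probe set means and not a measured background. How much of the signal below it is background was not tested, so the size of the change is uncertain.

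**Figure D1:**
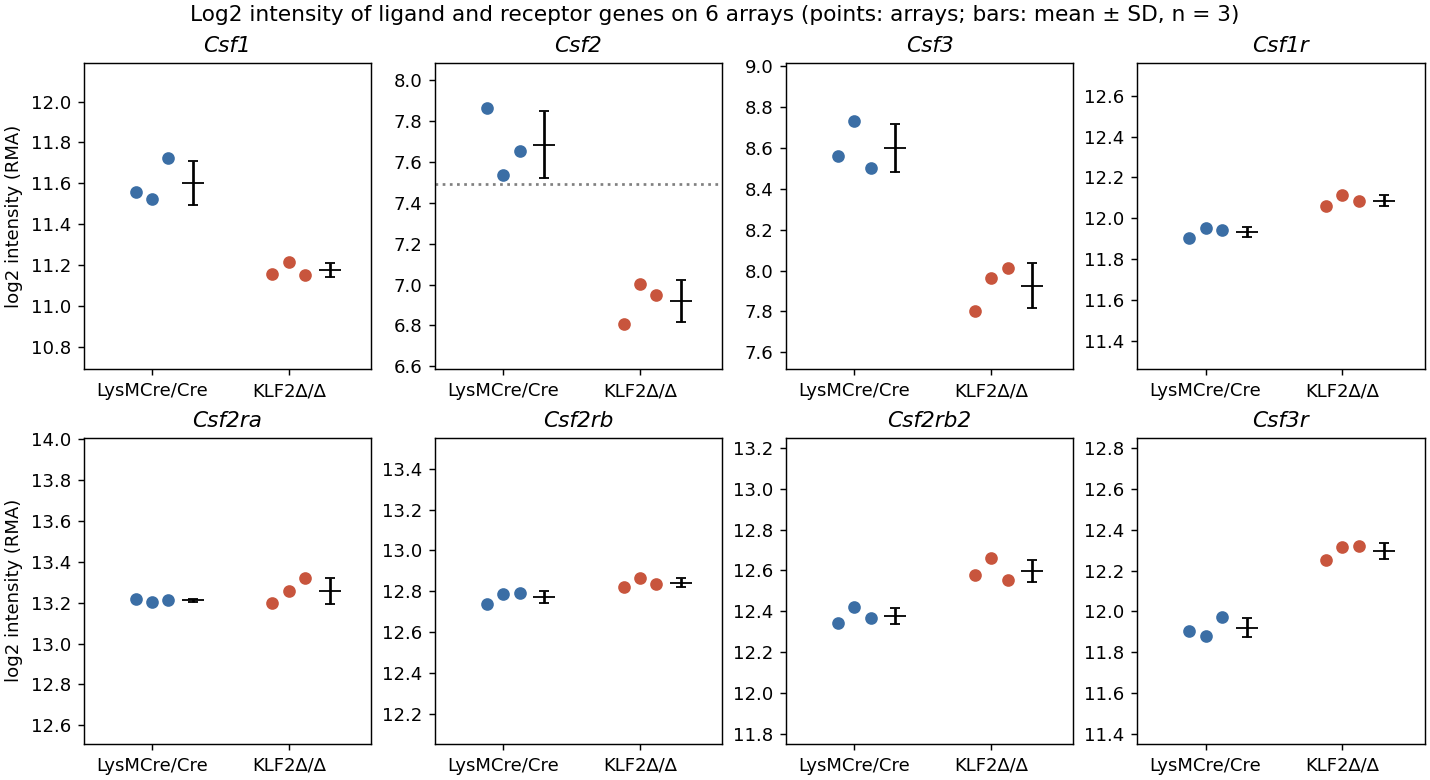
Log2 intensity (vertical axis, each panel spanning the same range) of the 8 genes on the 6 arrays, with the mean ± SD of each group (n = 3) beside the points and the tested level of 7.49 dotted where it falls in the panel. The groups are apart for Csf1, Csf2 and Csf3, whose points are lower in KLF2∆/∆, and for Csf1r, Csf2rb, Csf2rb2 and Csf3r, whose points are higher, while the Csf2ra groups overlap.

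Markers of some other cells were lower in KLF2∆/∆, as the ligands were, and those of others were not. For comparison, 16.2% of all tested genes fell and 13.6% rose. Fibroblast and mesothelial markers fell in 17 of 20 tested cases, with a median change of -0.57, and none rose. Their mean log2 intensity over the list ran from 9.79 to 9.80 for LysMCre/Cre and from 9.20 to 9.29 for KLF2∆/∆. Sparc, a matrix protein, changed by -0.88, the growth factor receptor gene Pdgfra by -1.21, the fibronectin gene Fn1 by -0.63 and the collagen gene Col1a2 by -0.85. Markers of resident peritoneal macrophages fell in 10 of 12 cases (median -0.61), with a list mean of 9.52 to 9.56 against 8.58 to 8.61. Prg4 had the largest change of that list (-4.37, or -3.51 with the lower mean, which is below the tested level, held at 7.49), before the complement receptor gene Vsig4 (-1.52), the chemokine gene Cxcl13 (-1.15) and the lineage factor gene Gata6 (-0.87). Among mast cell, basophil and eosinophil markers 4 of 5 fell (median -0.21), with Cpa3 at -0.52, Tpsb2 at -0.42 and Hdc and Gata2 at -0.21 each. The KLF2∆/∆ mean of Cpa3 lay below the tested level, and held at 7.49 it gave -0.38. Without moderation of the variances Hdc and Gata2 lost their calls (adjusted p = 0.0748 and 0.206), which left 2 falling genes. They also lost them without LysMCre/Cre replicate 1 (adjusted p = 0.0505 and 0.112), and Gata2 also without LysMCre/Cre replicate 2 or 3 or KLF2∆/∆ replicate 1 or 2 (0.152, 0.0517, 0.104 and 0.180). In that list 10 more genes, Kit and Fcer1a among them, lay below the tested level. Of 9 tested T, NK and B cell markers 2 rose, Il7r (0.55) and Klrk1 (0.48), none fell (Il7r alone rose without moderation of the variances, Klrk1 then at adjusted p = 0.0529), and Cd3d, Cd3g and Cd4 were below the tested level. With the LysMCre/Cre mean of Klrk1, also below that level, held at 7.49 its change was 0.31. The part of these cells in the ligand values was not tested. In such mixed RNA, fewer cells of a type and less RNA per cell cannot be told apart.

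**Figure D2:**
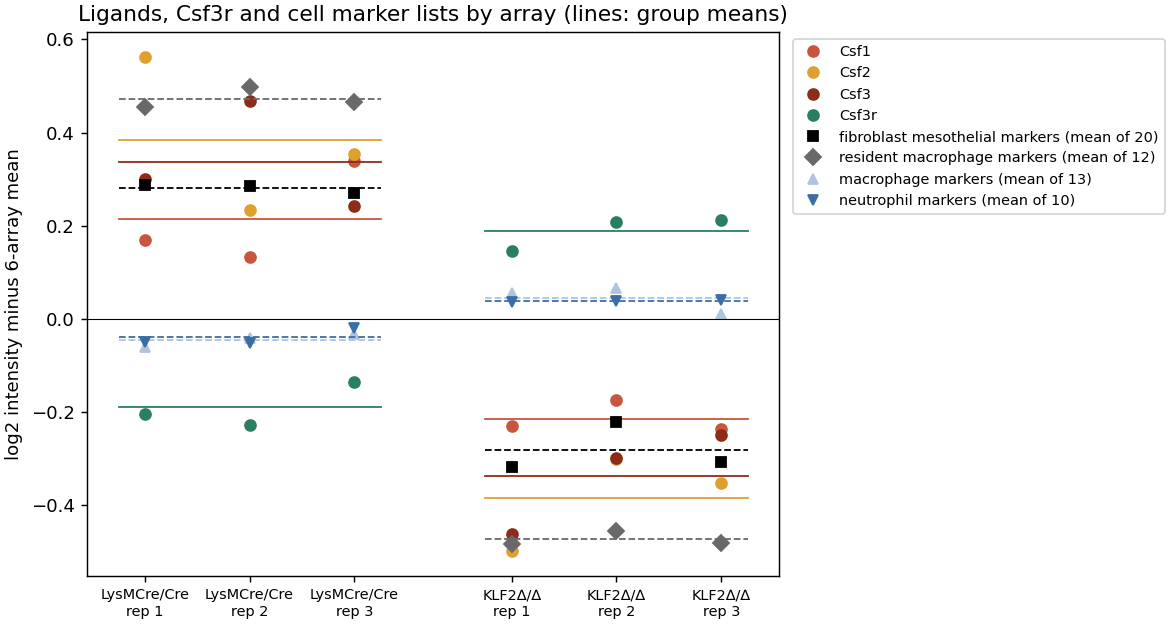
Log2 intensity minus the 6-array mean (vertical axis) of Csf1, Csf2, Csf3 and Csf3r, and the mean of the same quantity over 4 lists of cell markers, on each array, with horizontal lines at the group means. The stromal and resident macrophage lists lie above 0 in LysMCre/Cre and below it in KLF2∆/∆, as the ligands do, while Csf3r and the macrophage and neutrophil lists lie on the opposite side.

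Of the 5 receptor genes 3 rose and none fell, and each rise was smaller in size than the fall of either tested ligand gene. Csf3r, the G-CSF receptor gene, gave 11.91, 11.88 and 11.97 for LysMCre/Cre and 12.25, 12.32 and 12.32 for KLF2∆/∆, with a gap of 0.28 between the groups. It rose by 0.38 ± 0.040 (1.30-fold, 95% interval 0.29 to 0.46, adjusted p = 4.07e-07, exact permutation p = 0.1). Of all tested genes, 262 including Csf3r had a change at least as far above 0. Its ligand gene Csf3 fell by 0.67 on the same arrays.

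Since neutrophils carry this receptor, their markers are given beside it. Of 16 neutrophil markers 10 were tested, and S100a8, Ly6g, Mpo, Ltf, Ngp and Cxcr2 lay below the tested level. Mmp8, a neutrophil collagenase gene, rose by 0.74, S100a9, a calcium-binding protein gene, by 0.26 and the ficolin gene Fcnb by 0.21, while the chitinase-like gene Chil1 fell by 0.70. The LysMCre/Cre means of Mmp8 and S100a9 lay below the tested level, and held at 7.49 they gave 0.71 and 0.14. The calls of S100a9 and Fcnb were fragile: S100a9 lost its call without LysMCre/Cre replicate 1 or 2 or KLF2∆/∆ replicate 2 (adjusted p = 0.131, 0.103 and 0.227; change 0.14 without the last), and Fcnb without LysMCre/Cre replicate 1, 2 or 3 or KLF2∆/∆ replicate 1 or 3 (0.123, 0.110, 0.0631, 0.0954 and 0.137). Without moderation of the variances both lost their calls (0.274 and 0.115), and of the list only Mmp8 rose. The mean over the list was 8.56 to 8.59 in LysMCre/Cre arrays and 8.65 in each of the others (median change 0.11). The part of neutrophils in the Csf3r value was not tested.

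Csf1r, the CSF-1 receptor gene that marks the macrophage lineage, gave 11.91, 11.95 and 11.94 against 12.06, 12.12 and 12.09. The spread within each group was small (SD 0.025 and 0.028), and the groups did not overlap. Csf1r rose by 0.15 ± 0.039 (1.11-fold, 95% interval 0.072 to 0.23, adjusted p = 0.00469, exact permutation p = 0.1). Other general macrophage markers that rose were the Fc receptor gene Fcgr1 (0.47), the phagocytic receptor gene Mertk (0.29), the complement gene C1qb (0.23) and the transcription factor gene Spi1 (0.23). Of that list, which holds Csf1r itself, 7 of 14 rose and 2 fell (Cd14 by 0.26 and the integrin gene Itgam by 0.21, chosen after their values were seen; 1 fell without moderation of the variances), and the list mean was 12.24 to 12.26 against 12.32 to 12.37. For comparison, 13.6% of all tested genes rose and 16.2% fell.

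The GM-CSF receptor genes are 3 in number. Csf2ra, the alpha chain gene, gave 13.22, 13.20 and 13.21 for LysMCre/Cre and 13.20, 13.26 and 13.32 for KLF2∆/∆. The groups overlapped, and the change of 0.047 ± 0.034 did not pass (95% interval -0.024 to 0.12, adjusted p = 0.354, exact permutation p = 0.4). The interval ends at a rise of 1.08-fold and a fall to 0.983 of the LysMCre/Cre signal.

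Csf2rb, the beta chain gene shared by the receptors for GM-CSF, IL-3 and IL-5, gave 12.74, 12.79 and 12.79 against 12.82, 12.87 and 12.84. The groups were parted by 0.032, yet the change of 0.069 ± 0.034 did not pass (95% interval -0.0014 to 0.14, adjusted p = 0.140, exact permutation p = 0.1). Csf2rb2, the beta chain gene that in mice serves IL-3 alone, gave 12.34, 12.42 and 12.37 against 12.58, 12.66 and 12.56. Csf2rb2 rose by 0.22 ± 0.039 (1.17-fold, 95% interval 0.14 to 0.30, adjusted p = 0.000157, exact permutation p = 0.1). Both genes lie next to each other on chromosome 15 and have similar sequences, so their probe sets may share signal and their values are uncertain as separate measures. No test of the difference between their changes was made.

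**Figure D3:**
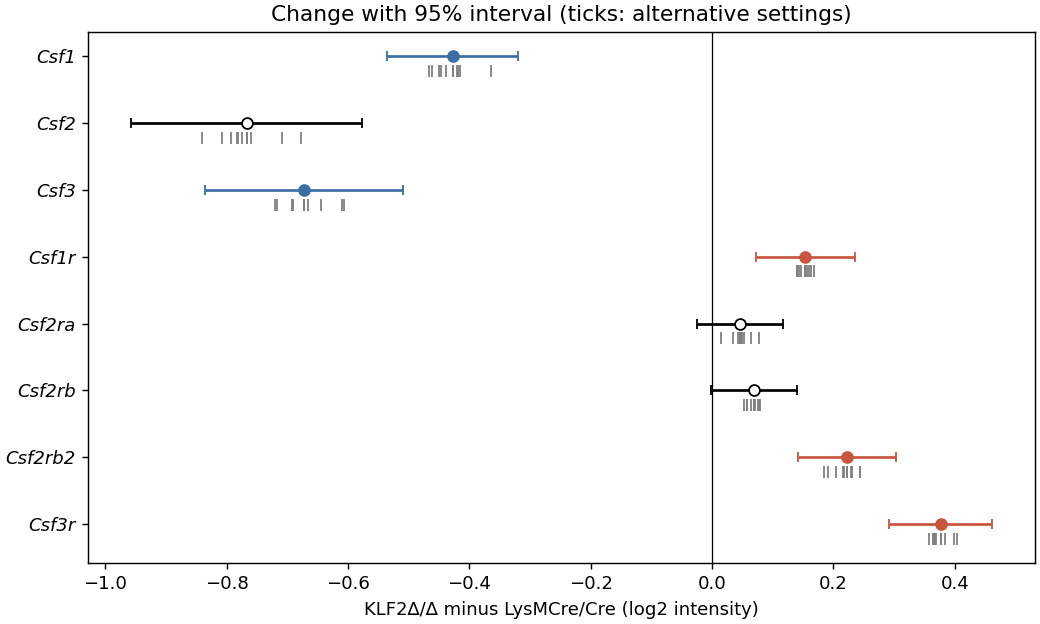
Change in log2 intensity (horizontal axis, KLF2∆/∆ minus LysMCre/Cre) of each gene with its 95% interval from the fit. Filled points passed the test, open points did not or were not tested (Csf2), and grey ticks mark the alternative settings: Csf1 and Csf3 stay between -0.72 and -0.36, Csf2 as measured between -0.84 and -0.68 (-0.19 with its lower mean held at 7.49) and the receptor genes between 0.015 and 0.40.

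Promoter sequence is shown for 2 members with lower and 2 with higher signal, so that the stretches before their starts can be read side by side. RefSeq promoter windows (GRCm38.p6) matched 5 of the 8 genes, Csf1, Csf2, Csf2ra, Csf2rb2 and Csf3r. Each line holds the 250 bases before the RefSeq start, 5′ to 3′ on the gene's strand, with motif matches in capitals. The windows are chr3:107760470-107760719 (minus strand) for Csf1, chr11:54249900-54250149 (minus) for Csf2, chr15:78305722-78305971 (minus) for Csf2rb2 and chr4:126024409-126024658 (plus) for Csf3r.
Csf1: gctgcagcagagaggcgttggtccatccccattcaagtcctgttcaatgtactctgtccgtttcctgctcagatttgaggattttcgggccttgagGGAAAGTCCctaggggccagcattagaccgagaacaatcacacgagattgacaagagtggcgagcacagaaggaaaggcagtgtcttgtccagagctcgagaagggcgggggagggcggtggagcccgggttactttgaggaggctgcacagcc
Csf2: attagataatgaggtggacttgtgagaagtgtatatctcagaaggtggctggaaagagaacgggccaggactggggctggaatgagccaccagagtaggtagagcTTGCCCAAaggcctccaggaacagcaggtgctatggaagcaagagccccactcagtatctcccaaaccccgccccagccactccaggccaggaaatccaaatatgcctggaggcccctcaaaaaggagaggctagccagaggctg
Csf2rb2: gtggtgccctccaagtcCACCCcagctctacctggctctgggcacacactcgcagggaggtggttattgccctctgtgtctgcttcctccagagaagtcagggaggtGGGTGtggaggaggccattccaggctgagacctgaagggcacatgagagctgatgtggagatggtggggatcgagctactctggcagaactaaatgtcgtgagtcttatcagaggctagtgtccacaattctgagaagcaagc
Csf3r: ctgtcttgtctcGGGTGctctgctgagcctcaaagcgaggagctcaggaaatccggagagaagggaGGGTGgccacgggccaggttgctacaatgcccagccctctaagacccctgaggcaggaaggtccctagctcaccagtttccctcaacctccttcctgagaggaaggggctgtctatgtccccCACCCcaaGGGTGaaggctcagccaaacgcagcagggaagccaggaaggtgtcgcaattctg

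Motifs were searched on both strands, and none of the matches in these 4 windows overlapped another. The Csf1 window held 1 match to an NF-kB-like motif (GGNNTTTCC), on the opposite strand between 154 and 146 bases before the start. That motif was in 4.93% of 32851 promoter windows of the same length. The Csf2 window held 1 match to a C/EBP-like motif (TTNCNNAA), 145 to 138 bases before the start, a motif in 36.8% of all windows. The KLF-like CACCC box was in 52% of all windows. It occurred 4 times in the Csf3r window, 2 times in that of Csf2rb2 and 3 times in that of Csf2ra, and the letters were not in the windows of Csf1 and Csf2. Matches to an AP-1-like motif (TGANTCA, in 6.75% of windows) and a TATA-like motif (TATAAA, in 12.4%) were in none of the 5. A match is a run of letters and not a measured binding site.

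Cytokines and receptors close to the family mostly did not pass the test or lay below the tested level. Il34, which encodes the other ligand of the CSF-1 receptor, had 7.72 ± 0.077 in LysMCre/Cre arrays and 7.78 ± 0.094 in the others (change 0.064 ± 0.076, adjusted p = 0.604). Sdc1, a syndecan gene described as a binding partner of IL-34, rose by 0.17 (adjusted p = 0.0183), and Flt3l, the gene of the FLT3 ligand, rose by 0.19 (adjusted p = 0.0323). Sdc1 lost its call without LysMCre/Cre replicate 1 (0.161) or KLF2∆/∆ replicate 2 (0.05). Flt3l lost it without LysMCre/Cre replicate 1 or 3 (0.0572 and 0.214) or KLF2∆/∆ replicate 2 or 3 (0.0568 and 0.0837). Neither passed without moderation of the variances (0.103 for Sdc1 and 0.115 for Flt3l). The stem cell factor gene Kitl (0.087), the IL-3 receptor alpha chain gene Il3ra (0.067) and the erythropoietin receptor gene Epor (0.019) did not pass (adjusted p = 0.403, 0.475 and 0.894). Il3, which lies beside Csf2 on chromosome 11, read 5.40 to 5.76 on all arrays, below the tested level, as did Il5, Epo, Il5ra, Kit, Flt3 and Ptprz1.

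Genes that carry the signal from these receptors rose more often than they fell. Of 26 tested members of receptor-proximal signalling 13 rose, 1 fell and 12 did not pass. The rising share was 50% against 13.6% of all tested genes, and the median change was 0.12 against 0.0019 over all tested genes. The SRC family kinase gene Fgr rose by 0.53 (adjusted p = 1.09e-07), the RAS exchange factor gene Sos1 by 0.52, Vav1, a signalling adaptor gene of blood cells, by 0.42 and the adaptor gene Pik3ap1 by 0.24. The kinase gene Akt1, chosen after its values were seen, fell by 0.17, and no gene of the list fell without LysMCre/Cre replicate 2 or without moderation of the variances. The kinase gene Jak2 and the transcription factor genes Stat5a and Stat5b, the core of the GM-CSF signal, were chosen for that role after their values were seen. Their changes were 0.036, 0.12 and 0.10, and none passed (adjusted p = 0.526, 0.0987 and 0.232).

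Negative regulators of the same receptors went both ways, with 7 of 21 rising and 6 falling (median 0.072). That is 33.3% and 28.6%, against 13.6% and 16.2% of all tested genes. Without LysMCre/Cre replicate 1 the rising genes were 4, and without LysMCre/Cre replicate 2 or KLF2∆/∆ replicate 1 the falling ones were 3. Without moderation of the variances 3 rose and 3 fell. Cish and Socs2, known as targets of STAT5, fell. Cish went from 9.10 ± 0.062 to 8.43 ± 0.011 (change -0.67 ± 0.064, adjusted p = 8.29e-08) and Socs2 from 8.56 ± 0.061 to 7.93 ± 0.11 (change -0.63 ± 0.074, adjusted p = 1.21e-06). Socs2 has 2 probe sets, of which the brighter is given, and over the alternative settings its change lay between -0.69 and -0.47. The docking protein gene Dok3 rose by 0.51 and Ptpn6, which encodes the phosphatase SHP-1, by 0.27. The Cish and Socs2 values are lower in all 3 arrays labelled KLF2∆/∆ than in any LysMCre/Cre array.

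Genes listed for their response to GM-CSF fell in 14 of 21 cases and rose in 4, with a median change of -0.26 (16.2% of all tested genes fell). The chemokine gene Ccl22 changed by -0.77 (adjusted p = 3.20e-09), Cish as above, the integrin gene Itgax by -0.47 and the MHC class II gene H2-Ab1 by -0.38. The 4 that rose, chosen after their values were seen, were Pparg, a nuclear receptor gene that GM-CSF induces in alveolar macrophages (0.53, adjusted p = 1.24e-06), the transcription factor gene Irf5 (0.20), the IL-1 receptor antagonist gene Il1rn (0.15) and the fatty acid binding protein gene Fabp5 (0.13). The count of falling genes was 7 without moderation of the variances. In the list for CSF-1 9 of 17 fell and 5 rose, with a median of -0.098. These shares were 52.9% and 29.4%, against 16.2% and 13.6% of all tested genes. The rising genes were 3 without LysMCre/Cre replicate 2 or without KLF2∆/∆ replicate 2, and 2 without moderation of the variances. The growth regulator gene Myc changed by -0.89, the immediate early gene Egr1 by -0.62, the platelet factor gene Pf4 by -0.50 and Plaur, the urokinase receptor gene, by -0.37. Those that rose, chosen after their values were seen, were Mertk (0.29), Plau (0.19), Trem2 (0.18), Gas6 (0.17) and Apoe (0.090). Dendritic cell markers, some of which GM-CSF also raises, fell in 2 of 8 cases (Fscn1 by 0.79 and Ccr7 by 0.23) and rose in 1 (Tcf4 by 0.29). These lists hold genes that LPS and other cytokines also control.

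**Figure D4:**
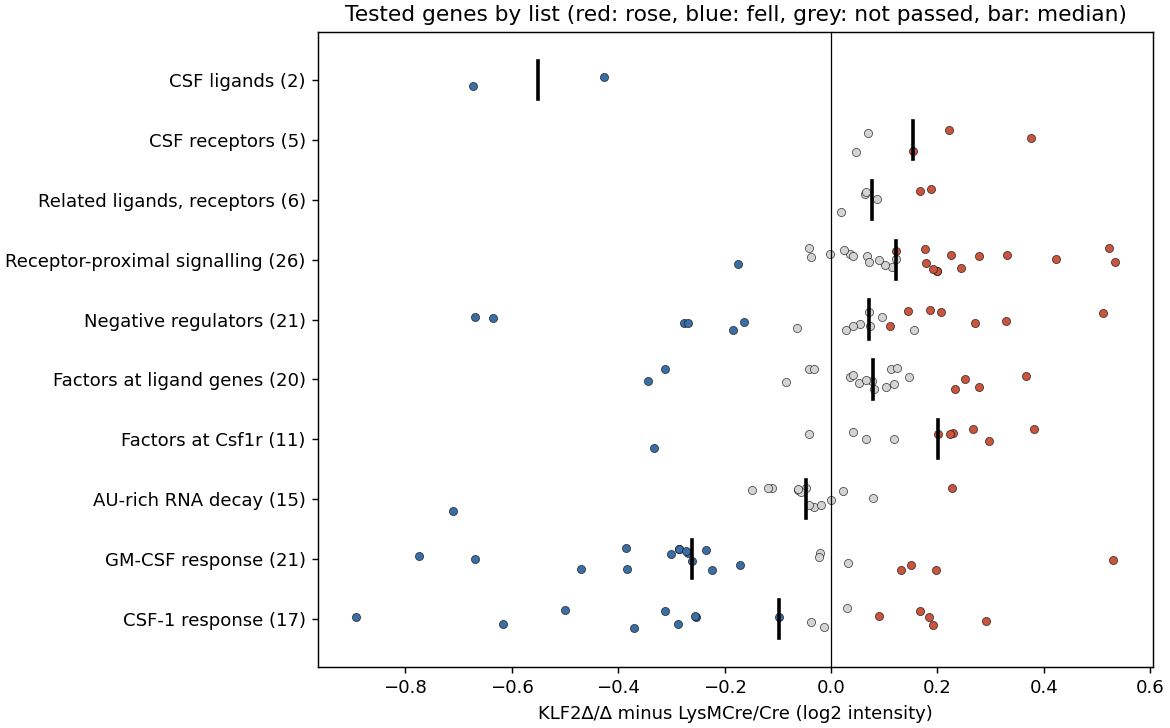
Change in log2 intensity (horizontal axis, KLF2∆/∆ minus LysMCre/Cre) of every tested gene of each list, with the number of tested genes in brackets, coloured by the test, and the list median as a black bar. The medians of the receptor list (0.15) and of the signalling list (0.12) lie above 0 and that of the GM-CSF response list (-0.26) below it.

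Of 20 tested transcription factors named for Csf1, Csf2 or Csf3, 4 rose, 2 fell and 14 did not pass (20% and 10% against 13.6% and 16.2% of all tested genes). Fosl2, an AP-1 subunit gene, changed by -0.31 and Ets1 by -0.34, while Fos rose by 0.37 and Elf1 by 0.25, as did Cebpd (0.28) and Junb (0.23), chosen after their values were seen. The KLF2∆/∆ mean of Ets1 lay below the tested level, and held at 7.49 it gave -0.31. Without moderation of the variances none of the list rose and 1 fell, with Fos, Elf1 and Fosl2 at adjusted p = 0.0959, 0.111 and 0.0704. Without LysMCre/Cre replicate 2 Elf1 lost its call (adjusted p = 0.0664) and 2 genes of the list rose. Csf2 and Csf3 transcripts carry AU-rich elements that decay factors bind. Of 15 tested genes listed as RNA-binding or RNA decay factors 1 rose, Zfp36, the tristetraprolin gene (0.23, adjusted p = 0.00108). In that list 1 fell, Zfp36l1 (-0.71, adjusted p = 8.77e-08), and 13 did not pass, Hnrnpd at -0.11 and Tial1 at -0.15 among them. The list median was -0.046, and 4 fell without KLF2∆/∆ replicate 2. Zfp36 did not pass without moderation of the variances (adjusted p = 0.093).

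Transcription factors known to act at Csf1r rose in 6 of 11 cases and fell in 1 (median 0.20), and 3 rose without moderation of the variances. The main shares were 54.5% rising and 9.09% falling, against 13.6% and 16.2% of all tested genes. Maf rose by 0.38 (adjusted p = 1.14e-07), Spi1, which encodes PU.1, by 0.23 and Mitf by 0.27, while Tfec fell by 0.33. Mitf has several probe sets, and with their mean its change was 0.13 and did not pass (adjusted p = 0.150). Endothelial markers moved in 1 of 6 cases, Kdr, the VEGF receptor gene (1.25), with Vwf, Tie1 and Esam not passing.

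For each member, the tested genes with the most similar profile over the 6 arrays were sought. Genes below the tested level, as Csf2 itself is, were not candidates. The measure was the root mean square difference of the deviations of both genes from their own means, on the log2 scale. For Csf1 the closest genes were Ndn (0.035), Cpe (0.040) and Npm1 (0.043). For Csf3 they were Cdc20 (0.040), Rnd1 (0.049) and the microRNA host gene Mir100hg (0.051), and for Csf2 Il22ra1 (0.066), Adm (0.066) and Ptprd (0.068). Csf3r was closest to Tmem50b (0.025), Stx2 (0.025) and Smox (0.026), Csf2rb2 to Tfe3 (0.020), Mink1 (0.021) and Vps41 (0.021), and Csf1r to Tcf7l2, Fnbp4 and Eif2ak1 (0.014, 0.014 and 0.015). Csf2rb was closest to Ext1 (0.0065), Exoc2 and Zfp236, and Csf2ra to Bhlhe23 (0.0079), Irak2 and Baiap2. Distances are smaller for members that vary little, so they rank genes within a member only.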

How the data were processed

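The deposited log2 intensities, with 1 value for each array and probe set, were made with Affymetrix Expression Console and RMA, per the submitters' processing notes. RMA by its usual definition corrects background, quantile-normalizes and summarises probes. The other deposited file gives linear intensity, per the file headers, whose log2 was within 5.05e-05 of the first. No version or genome build is named in the sources used here. Without scan dates, batches were not tested. RMA makes the arrays' distributions alike and compresses ratios of dim probe sets.

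Of 35557 probe sets, the 6613 of lowest identifier, absent from the annotation, were taken for controls and left out. Of the other 28944, 21789 name 1 gene, 1621 several and 5534 none, and symbols were updated through RefSeq (GRCm38.p6, 21698 matched). The brightest probe set stood for each of 19938 genes, and 12649 at or above the 40th percentile (log2 7.49) were tested with limma 3.58.1 in R 4.3.3 (lmFit, eBayes with an intensity trend, two-sided). The fit was tested on simulated data. Exact permutation tests used scipy 1.17.1 and figures matplotlib 3.10.9. The number of arrays limits the precision.

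Members and gene lists were chosen with earlier results of these data known. Genes named are the members, Klf2 and Lyz2, and the related ligands and receptors. Also named are the 4 genes of smallest p in each other list (all called genes where 5 or fewer were called). The 3 tested genes of most similar profile to each member were added (unnamed predicted genes passed over). Others are said to be chosen after their values were seen. Alternatives covered scaling, the filter, the replicate block, array weights, variance models, probe sets, the source table, the threshold and leaving out each array.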

Additional observations from a re-analysis of the deposited data

How the results depend on the processing

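All 7 tested members kept their direction and their side of the threshold under every alternative that gave a value (17 each, 16 for Csf3, which a filter at the 60th percentile removes), and Csf2 kept its direction under 17. That filter therefore left 1 member called lower. The largest adjusted p was 0.0283 for Csf1, 0.0224 for Csf3, 0.0112 for Csf3r, 0.0362 for Csf2rb2 and 0.0478 for Csf1r, whose call is the closest to the threshold. Leaving out single arrays gave -0.47 to -0.36 for Csf1, -0.72 to -0.61 for Csf3, -0.84 to -0.68 for Csf2, 0.36 to 0.40 for Csf3r, 0.19 to 0.24 for Csf2rb2 and 0.14 to 0.17 for Csf1r. Deviations from the group means had correlations of -0.091, 0.12 and -0.049 between arrays of equal replicate number. With 3 arrays a group these cannot tell whether equal numbers mark a pair, and no label says so. With the replicate block the calls of the members were unchanged (Csf1 -0.43, adjusted p = 3.22e-08). Without moderation of the variances 969 genes rose and 1155 fell, against 1723 and 2043. Leaving out single arrays turned the sign of Lyz2 (-0.033 to 0.044) and Epor (-0.038 to 0.063), which did not pass in any fit. Of 1506 values of the other named genes 61 lost and 8 gained a call, and of 544 list counts 47 moved by more than 1.5 times. Signal over background limits Csf2 most, and the cause of these differences was not tested.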
